A study of Homo sapiens with 8 samples.

Results

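Binding of CHD4 was followed at 6 gene loci of squamous and epithelial identity, TP63, SOX2, KRT5, KRT14, KRT8 and KRT18, in SCC9, an established squamous carcinoma line of the tongue. The loci were chosen by gene name, and earlier results of these data were known when they and the tests were chosen. All peaks that touched the span of a gene in hg19, or the 50 kb on either side of it, were taken, and the windows of KRT8 and KRT18, whose spans overlap by 996 bp, were joined, which leaves 5 windows of 834.6 kb in all. They held 37 of the 36876 peaks of the series, which merged into 21 of its 18808 regions when peaks sharing at least 1 bp were joined. The series compares SCC9 cells without DOC1 (labelled lacZ and -DOC1) with SCC9 cells with DOC1 (labelled DOC1 and +DOC1). Each group has 3 ChIP-seq libraries made with an antibody to CHD4 and numbered 1 to 3, and 1 library with control IgG that was not analysed here. All cells were cultured in serum and hydrocortisone and fixed with formaldehyde. The labels do not say how DOC1 was lost or supplied, and they name no separate cultures or clones, so a p-value below is set by the scatter of the libraries, and that scatter can be technical.

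CHD4 is the ATP-driven motor of NuRD, a chromatin complex that repositions nucleosomes and removes acetyl groups from histones. DOC1 (CDK2AP1) is a small subunit of that complex. TP63 encodes p63, the transcription factor that maintains basal cells of stratified epithelia, and SOX2 encodes a lineage factor that is often amplified together with TP63 on the long arm of chromosome 3 in squamous carcinomas. KRT5 and KRT14 encode the keratin pair of basal squamous cells, and KRT8 and KRT18 encode the pair of simple epithelia, which squamous carcinomas can also express. No expression was measured in this series, so neither the squamous identity of the cells nor the activity of these genes was checked here.

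The peak lists differed in length and depth. They held between 2812 peaks (lacZ 2) and 11032 peaks (DOC1 3). The number of reads at each summit, recovered from the deposited statistics, had a median of 38, 27 and 22 in lacZ 1, lacZ 2 and lacZ 3. It was 15, 15 and 34 in DOC1 1, DOC1 2 and DOC1 3. An exact Poisson 95% interval reaches from 8.4 to 24.7 for 15 reads and from 26.9 to 52.2 for 38 reads, so a site of moderate enrichment can pass the threshold in one list and miss it in another. These intervals cover counting error only. The list of DOC1 2 stood apart from the rest, with 61.2% of its regions in no other library (5.71% to 36.9% in the other 5) and 7.42% of its peaks on chromosome 13 (1.32% to 1.57%). A missing peak therefore means only that none passed the authors' threshold, and fold enrichment, which belongs to each peak in its own list, is given with its percentile in that list.

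The 5 windows differ in width, from 102.5 kb at SOX2 to 365.9 kb at TP63, and in the number of CHD4 peaks. The TP63 window held 18 peaks in 8 regions, the KRT14 window 9 peaks in 4 regions and the joined KRT8 and KRT18 window 7 peaks in 6 regions, while KRT5 had 2 peaks and SOX2 had 1. Per length, summed over the 6 lists, KRT14 was densest with 86.0 peaks per Mb, followed by TP63 with 49.2 and KRT8 and KRT18 with 45.0. KRT5 had 18.9 and SOX2 9.75. A site counts in these sums once for each list that holds it, and 1 region at KRT14 was in all 6 lists. At KRT8 and KRT18, DOC1 3 alone held 32.1 peaks per Mb, and lacZ 2, lacZ 3 and DOC1 2 held 0. The whole chromosomes held 38.0 (chromosome 17), 9.53 (chromosome 3) and 7.66 (chromosome 12) peaks per Mb on the same scale. The SOX2 value rests on a single peak, in DOC1 2, so it cannot be read against the level of its chromosome. By gene span, the span of TP63 held 6, that of KRT8 5, those of SOX2 and KRT18 1 each, and those of KRT5 and KRT14 none. Of the 21 regions, 13 (61.9%) were found in 1 library alone, against 56.2% of all regions of the series, and 4 in 2 libraries. The other 4 were found in 3 libraries or more, and 3 of those lie in the TP63 window.

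The number of regions per library was compared between the groups window by window. Over all 5 windows together, lacZ 1, lacZ 2 and lacZ 3 had 6, 3 and 2 regions and DOC1 1, DOC1 2 and DOC1 3 had 8, 6 and 12. The groups met at 6 regions, and the means of 3.67 ± 2.08 without DOC1 and 8.67 ± 3.06 with it (SD, n = 3) differed by 5.0, with a two-sided exact permutation p of 0.2. With 3 libraries against 3 no such test can go below 0.1. As a share of each list, the windows held 0.0854%, 0.107% and 0.0424% of the peaks in lacZ 1, lacZ 2 and lacZ 3. They held 0.102%, 0.174% and 0.109% in DOC1 1, DOC1 2 and DOC1 3. The difference of 0.0502 percentage points also overlapped between the groups (exact permutation p = 0.2), and it was 0.0273 without DOC1 2 and 0.0323 without lacZ 3. Peaks covered 3292, 1251 and 974 bp of the windows in the lacZ libraries and 2802, 2442 and 5919 bp in the DOC1 libraries, a difference of 1882 bp (exact permutation p = 0.3) that was 783 bp without DOC1 3. All 3 measures had an adjusted p of 0.3 (exact permutation, Benjamini-Hochberg over the 3).

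**Figure D1:**
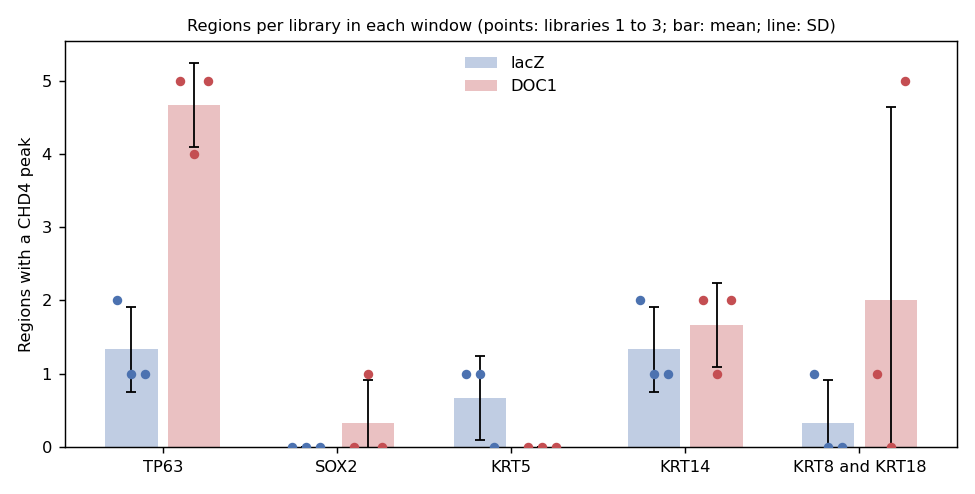
Number of merged regions with a CHD4 peak (vertical axis) in each of the 5 windows, for the lacZ libraries (blue) and the DOC1 libraries (red). Points are the 3 libraries of a group, bars their mean and lines the SD; at TP63 the DOC1 libraries lie at 4 and 5 regions and the lacZ libraries at 1 and 2.

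TP63 was the window where the groups did not overlap. DOC1 1, DOC1 2 and DOC1 3 had 5, 4 and 5 regions around the gene, and lacZ 1, lacZ 2 and lacZ 3 had 2, 1 and 1. Every DOC1 library thus lay above every lacZ library, with means of 4.67 ± 0.58 and 1.33 ± 0.58 regions (SD, n = 3). This held for the span and its flanks together, not for each part. Inside the span, DOC1 libraries 1 to 3 held 2, 0 and 2 regions and lacZ libraries 1 to 3 held 0, 1 and 1. Downstream of it the groups met at 2 regions, and upstream at 0. The difference of 3.33 regions gave an exact permutation p of 0.1, the smallest possible, and an adjusted p of 0.5 over the 5 windows (exact permutation, Benjamini-Hochberg). For comparison, the genome was cut into tiles as wide as the TP63 window (365.9 kb), and 4699 tiles held a region. In 159 of these (3.38%) each DOC1 library had more regions than each lacZ library, and in 21 (0.447%) the reverse held. The tiles were sparser than the TP63 window, with a mean of 1.01 regions per lacZ library and 1.55 per DOC1 library. The share among tiles as dense as the TP63 window was not computed. The difference at TP63 was between 3.17 and 3.67 with any 1 library left out, 3.67 without DOC1 2, and the groups did not overlap in any of these. It fell to 1.33 regions (exact permutation p = 0.3) in lists cut to the same length, with 1, 1 and 0 peaks left in the lacZ lists and 1, 3 and 2 in the DOC1 lists. It was 1.67 regions (exact permutation p = 0.3) with 10 kb on either side of the gene, and the groups overlapped in both settings. The part of depth and list length in the difference was not tested beyond these settings.

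Between the groups, DOC1 2, with 3448 peaks, had 4 of them at TP63, and lacZ 1, with 7027 peaks, had 2. Within each group the longest list had the most regions or as many as any other. As a share of the list, the TP63 window held 0.0638%, 0.116% and 0.0453% of the peaks of DOC1 libraries 1 to 3 and 0.0285%, 0.0356% and 0.0212% of those of lacZ libraries 1 to 3. The groups did not overlap on this scale either. With DOC1 the higher, they also did not overlap in 4.43% of the same tiles, which were sparser on average. In every library the window was denser in peaks than its chromosome. It held 13.7, 10.9 and 13.7 peaks per Mb in the DOC1 libraries, where chromosome 3 as a whole held 2.01, 1.33 and 2.69. In the lacZ libraries it held 5.47, 2.73 and 2.73 peaks per Mb, where the chromosome held 1.79, 0.657 and 1.05.

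**Figure D2:**
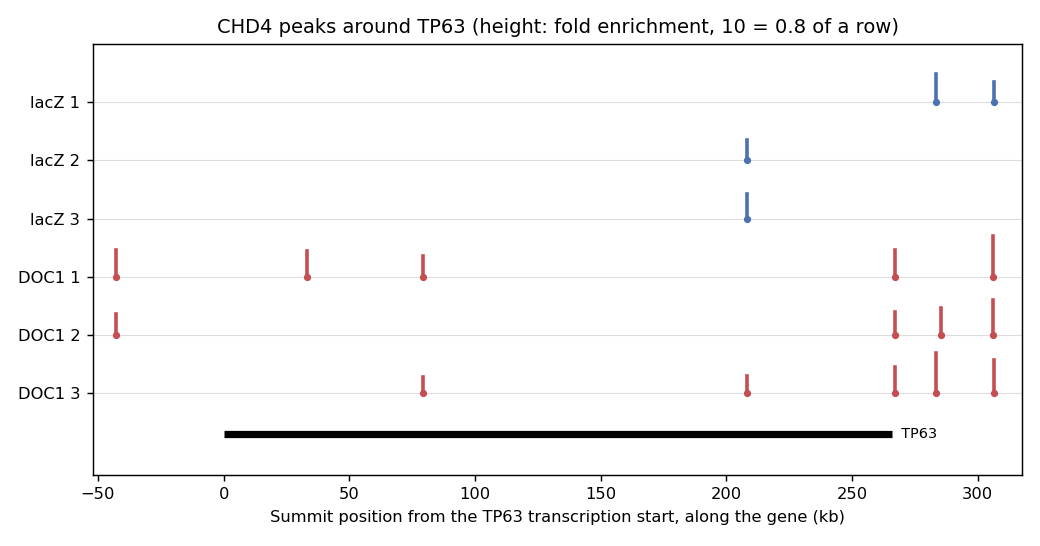
CHD4 peak summits in the TP63 window by library (rows), placed by their distance in kb from the upstream end of the TP63 span (0), with the span as a black bar. Line height is the authors' fold enrichment, and the 3 DOC1 rows share summits near 267 and 306 kb.

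At TP63, 1 region was found with DOC1 alone and in each DOC1 library, just past the 3′ end of the gene. It is 386 bp long, at chr3:189616346-189616731, about 1.5 kb beyond the end of the span, and held a peak in all 3 DOC1 libraries and in 0 of 3 lacZ libraries. Its fold enrichment was 5.78, 4.95 and 5.73 in DOC1 1, DOC1 2 and DOC1 3, the 45.5th, 38.3rd and 67.7th percentile of these lists. The summits rested on 17, 18 and 39 reads over a local background of 2.11, 2.84 and 5.33 reads. The 3 summits fell within 21 bp of each other, at 189616518, 189616525 and 189616539. It was the only one of the 21 regions with this pattern, which 184 of all 18808 regions (0.978%) show, and none showed the reverse, which 221 (1.18%) show. Presence in 3 of 3 libraries against 0 of 3 cannot pass a test in this design. The peaks of DOC1 1 and DOC1 3 ranked too low by p-value to stay in lists of equal length, where DOC1 2 alone kept the region.

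A region farther downstream of TP63 was found in all 3 DOC1 libraries and 1 lacZ library. At chr3:189655119-189656044, 40.5 kb beyond the end of the gene, DOC1 1, DOC1 2 and DOC1 3 had folds of 8.72, 7.61 and 7.20, at the 93.5th, 95.3rd and 89.6th percentile of their lists. The lacZ 1 peak had a fold of 4.31 at the 13.8th percentile, and lacZ 2 and lacZ 3 had none. By fold, the region thus ranked near the top of every DOC1 list and near the bottom of the only lacZ list that held it. By p-value the lacZ 1 peak ranked 4636th of 7027, below the middle of its list. The peaks of DOC1 1, DOC1 2 and DOC1 3 ranked 772nd of 7834, 215th of 3448 and 1747th of 11032. The summits lay within 24 bp of each other. The lacZ 1 summit held 46 reads over a background of 9.05 reads. The DOC1 summits held 19, 21 and 39 reads over backgrounds of 1.29, 1.89 and 3.88. These reads are not scaled to depth, which differs between the libraries, and what set the low fold in lacZ 1 was not tested. The median background of all peaks in lacZ 1 was 4.24 reads. In lists of equal length this region took the place of the previous one, with a peak in all 3 DOC1 libraries and no lacZ library.

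Between these regions lay 2 further sites downstream of TP63. At chr3:189632618-189632989, 17.7 kb past the gene, DOC1 3 had its highest fold near TP63, 8.65 at the 96.4th percentile with 50 reads at the summit. lacZ 1 shared the site with a fold of 6.13 at the 62.5th percentile and 42 reads, and the 2 summits were 1 bp apart. At chr3:189634546-189634836, 19.6 kb past the gene, a peak with a fold of 5.84 was found in DOC1 2 alone. Downstream of the span the DOC1 libraries held 2, 3 and 3 regions, and among the lacZ libraries lacZ 1 held 2 and the others none. The next coding gene on that side is P3H2, which encodes a prolyl hydroxylase of collagen. Its order was read from a gene table of another build (GRCh38.p14), so no distance to it is given.

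Inside the TP63 span the peaks ranked in the lower part of their lists by fold, between the 8.21st and the 38.4th percentile. The region at chr3:189557467-189557791, 208 kb from the upstream end of the span, was found in 3 libraries, with folds of 4.28 and 5.19 in lacZ 2 and lacZ 3 and 3.63 in DOC1 3. These stand at the 8.21st, 23.5th and 9.69th percentile, and the summits lay within 128 bp. The region at chr3:189428341-189428776, 79.3 kb into the span, was shared by DOC1 1 and DOC1 3 with folds of 4.5 and 3.57, at the 12.7th and 8.68th percentile. DOC1 1 alone had a peak at chr3:189382149-189382382, 33.1 kb into the span, with a fold of 5.50 at the 38.4th percentile. By p-value this peak ranked 3007th in its list, ahead of the DOC1 1 peak just past the 3′ end of the gene, which ranked 3385th. Upstream of the gene, DOC1 1 and DOC1 2 had peaks that met at chr3:189306156-189306710, with folds of 5.86 and 4.59 and summits 175 bp apart, 42.7 and 42.9 kb before the gene. TP63 has a second promoter within the gene that drives the short ΔN form of p63, the main form in basal cells. No hg19 gene model was at hand to place it, so peaks inside the span are given by their distance from its upstream end and not by exon, intron or promoter.

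**Figure D3:**
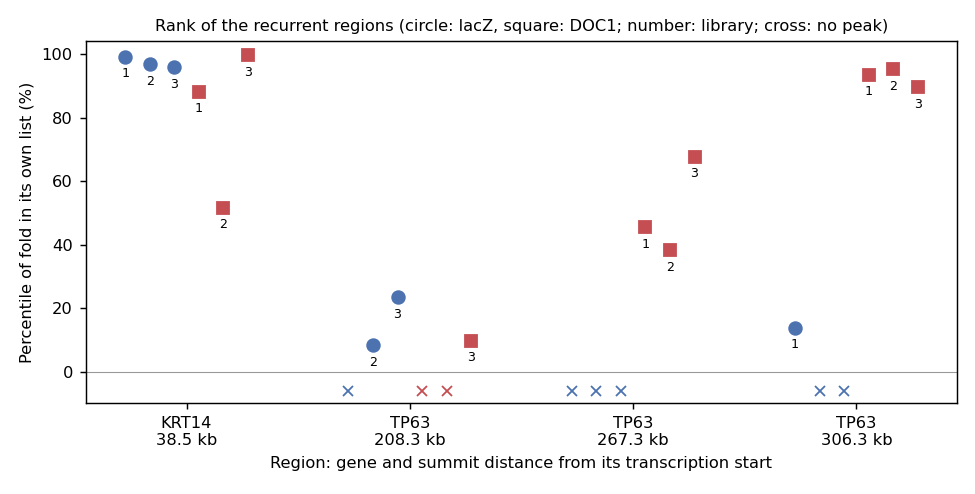
Percentile of fold enrichment within its own list (vertical axis, %) of each peak in the 4 regions found in 3 libraries or more, named by gene and summit distance from the transcription start. Circles are lacZ and squares DOC1 libraries with their number, and crosses mark libraries with no peak; the KRT14 region is high in 5 of 6 lists, and the TP63 region at 306 kb is high in the 3 DOC1 lists.

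SOX2, the other chromosome 3 lineage factor, had a CHD4 peak nearby in 1 library. Its window of 102.5 kb held a single peak, in DOC1 2, at chr3:181432017-181432254. This peak lay across the 3′ end of the gene, with its summit 2.36 kb from the transcription start, inside the span. Its fold was 5.19 at the 46.6th percentile of the list, with 14 reads at the summit over a background of 1.89. In lacZ 1, lacZ 2, lacZ 3, DOC1 1 and DOC1 3 the nearest peak to SOX2 was 722 kb away, at the same site below the gene in all 5 libraries. DOC1 2 had no peak at that site, and its own next peaks were 2927 kb below and 3293 kb above the gene. The peak at SOX2 was thus one that no other library shared, in the list that shared the fewest regions with the others. The difference between the groups was 0.333 regions (exact permutation p = 1.0) and became 0 without DOC1 2.

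KRT14, the type I keratin of basal cells, had no peak in its span but the most constant CHD4 region of all 6 loci. The region at chr17:39704034-39705748 held a peak in all 6 libraries, as do 518 of all regions of the series (2.75%). It lay 33.9 kb beyond the 3′ end of KRT14. Its fold was 14.8, 12.1 and 11.6 in lacZ 1, lacZ 2 and lacZ 3, at the 99.2nd, 96.9th and 95.8th percentile. In DOC1 1, DOC1 2 and DOC1 3 the fold was 7.87, 5.23 and 12.5, at the 88.1st, 51.6th and 99.6th percentile. It was thus among the strongest peaks of the lacZ lists and of DOC1 3, and of middle rank in DOC1 2. The summits held 91, 48 and 37 reads in the lacZ libraries and 19, 16 and 78 in the DOC1 libraries, and all 6 lay within 66 bp, between 39704610 and 39704676.

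The KRT14 region was also broad. Its peaks were 1182, 755 and 727 bp wide in lacZ 1, lacZ 2 and lacZ 3 and 560, 728 and 1621 bp wide in DOC1 1, DOC1 2 and DOC1 3, where the median peaks of the lists were 284 to 398 bp wide. All 6 widths lay at or above the 93.8th percentile of their own lists, DOC1 2 included at the 99.2nd. The order of the genes in GRCh38.p14 places KRT9, KRT19 and KRT15 on the side of KRT14 where this region lies, and KRT16 and KRT17, keratins of wounded and hyperproliferative epidermis, on the other. Which of these genes is nearest to the region was not determined, since no annotation of hg19 was used here. Since the region lies beyond 25 kb of the gene, it is no part of a window of that size.

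The other KRT14 regions were each found in 1 library. DOC1 3 had a peak with a fold of 6.52 at the 82.5th percentile, 37.9 kb upstream of the gene (chr17:39780835-39781288). lacZ 1 had a peak with a fold of 5.09, 46.8 kb upstream (chr17:39789732-39790160), and DOC1 1 had one with a fold of 5.77, 44.0 kb beyond the 3′ end (chr17:39694390-39694660). The libraries held 2, 1 and 1 regions in lacZ 1, lacZ 2 and lacZ 3 and 2, 1 and 2 in DOC1 1, DOC1 2 and DOC1 3, and the groups overlapped. The difference was 0.333 regions (exact permutation p = 1.0; adjusted p = 1.0 over the 5 windows).

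KRT5, the type II partner of KRT14, had peaks in lacZ libraries alone, and none within 10 kb. lacZ 1 had a peak 19.8 kb beyond the 3′ end of the gene (chr12:52888331-52888744), with a fold of 5.56 at the 47.3rd percentile and 33 reads at the summit. lacZ 2 had one 17.8 kb beyond it (chr12:52890460-52890696), with a fold of 5.41 at the 29.0th percentile and 15 reads. The 2 peaks were neighbours but did not overlap, with summits at 52888520 and 52890543, and lacZ 3 had none. Of the DOC1 libraries, DOC1 3 had its nearest peak 71.5 kb from KRT5 and DOC1 1 at 291 kb, and DOC1 2 had none within 1726 kb. The counts of 1, 1 and 0 in lacZ and 0, 0 and 0 in DOC1 overlapped (difference -0.667, exact permutation p = 0.4). On the side where these peaks lie, the gene order in GRCh38.p14 gives KRT6A, KRT6C and KRT6B, keratins of hyperproliferative epidermis.

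The keratin cluster on chromosome 12 between KRT5 and KRT8 held 5.31 peaks per Mb summed over the 6 lists, against 7.66 on the whole chromosome, and with 2 peaks no difference can be read from this. These 376.7 kb hold 12 coding genes in the order of GRCh38.p14, and all 12 are keratin genes, among them KRT1 and KRT2 of the differentiated epidermis, KRT4 of mucosal epithelium, and KRT71 to KRT74 of the hair follicle. Across this stretch the 6 lists held 2 peaks, both close to its KRT8 end. One was found in lacZ 1 at chr12:53229706-53230086 with a fold of 8.29 at the 88.7th percentile. The other, in DOC1 3 at chr12:53241093-53241380 with a fold of 4.89, lies just inside the edge of the KRT8 window and is counted there too. The first 315.5 kb above KRT5 held no peak in any library.

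KRT8 and KRT18, which lie head to head, had peaks mostly in the longest list. DOC1 3 held 5 regions in their joined window, lacZ 1 and DOC1 1 held 1 each, and lacZ 2, lacZ 3 and DOC1 2 held none. The means of 2.0 ± 2.65 with DOC1 and 0.333 ± 0.577 without it (SD, n = 3) differed by 1.67 regions, less than the SD of the DOC1 libraries (exact permutation p = 0.7; adjusted p = 1.0 over the 5 windows). Without DOC1 3 the difference was 0.167, and in lists of equal length no peak was left in the window. Without DOC1 2 it was 2.67.

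Where the upstream ends of the KRT8 and KRT18 spans overlap there was 1 peak, in DOC1 1, at chr12:53343512-53343822. Its summit lay 0.04 kb inside the upstream end of the KRT8 span and 0.95 kb past the start of KRT18, and it is the only peak in the KRT18 span. Its fold was 4.46, at the 11.4th percentile of the list, with 16 reads over a background of 2.82. The only region of the window found in more than 1 library lay within the KRT8 span at chr12:53320876-53321408, 22.5 kb from its upstream end. Here lacZ 1 had a fold of 5.30 at the 39.5th percentile and DOC1 3 one of 3.12 at the 3.05th, with summits 58 bp apart. DOC1 3 had as many as 37 reads at this summit, over a background of 10.7 reads, against 5.33 for the median peak of its list.

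The remaining KRT8 and KRT18 peaks were those of DOC1 3. They lay at chr12:53298724-53299038 and chr12:53301361-53301632 within the KRT8 span, 44.8 and 42.1 kb from its upstream end, with folds of 4.27 and 4.68. Another lay at chr12:53365585-53365857, 22.1 kb upstream of the KRT8 span, with a fold of 4.94, and the last is the peak at the window's far edge named above. None of the 7 peaks of this window rose above the 44.6th percentile of its list. In the KRT14 window, 5 of the 6 peaks of the region in all 6 libraries stood at or above the 88.1st. The peaks elsewhere in the KRT14 window stood at the 32.7th, 44.6th and 82.5th. A shorter transcript of KRT8 starts within the span, and its start in hg19 was not at hand. The upstream end of the span is therefore not taken as the main start of KRT8, and peaks in the span are not assigned to a promoter.

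**Figure D4:**
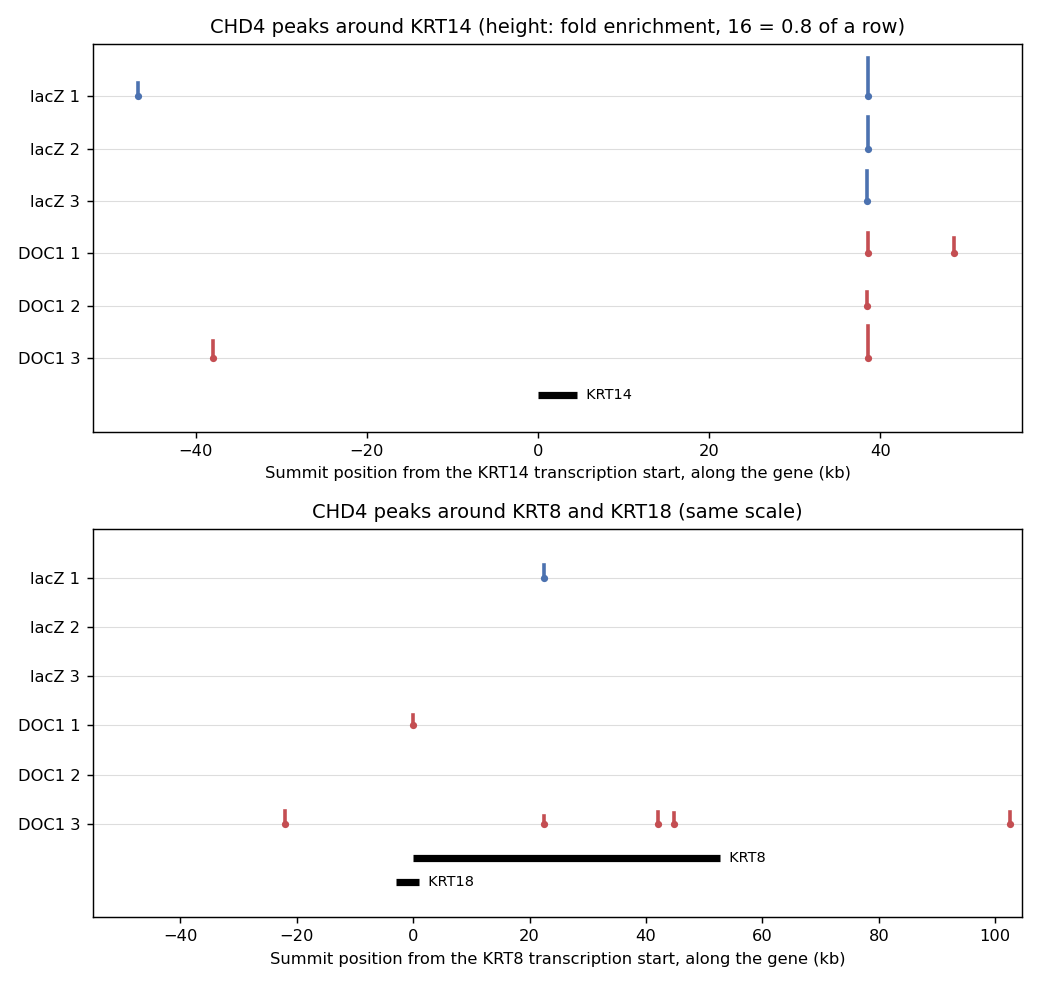
CHD4 peak summits by library (rows) in the KRT14 window (top) and the joined KRT8 and KRT18 window (bottom), placed by distance in kb from the upstream end of KRT14 or KRT8 along the gene; black bars are gene spans and line height is the authors' fold enrichment. One summit near 38.5 kb recurs in all 6 libraries at KRT14, and at KRT8 and KRT18 5 of 7 peaks are those of DOC1 3.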

How the data were processed

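Peaks of 6 CHD4 ChIP-seq libraries of SCC9 cells (single reads of 50 bp, 18 PCR cycles per the labels' protocols) were analysed. Per the submitters' processing notes, Trimmomatic 0.33, BWA 0.7.12-r1039, SAMtools 1.2 and MACS2 2.1.1.20160309 were used with hg19 (GRCh37); command lines, filters and the peak caller's control were not given in the sources used here. Lists deposited by the authors, 1 per library, give each peak a fold enrichment (a ratio of reads at the summit to local background), the −log10 of its p-value and q-value, and a score, which was 10 times that q-value term, cut to a whole number, in 100% of peaks. The deposited fold is the peak's own value and was used only to describe and rank peaks within a list. No listed q-value exceeded 0.00972.

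Positions are 1-based. Summit reads were solved from the deposited fold and p-value, taking fold as pileup plus 1 over background plus 1 and p as a Poisson tail. Pileup was taken as a whole number of reads times 1 factor per library. At least 99.97% of peaks in each list gave a whole number within 0.003 of the scaled pileup. The procedure was also run on data simulated with these same formulas, which cannot show that the deposited values follow them. Groups and replicate numbers come from sample titles. The members, gene lists and tests were chosen with earlier results of these data known. All members are named. Regions found in 3 libraries or more, the region with the best percentile of each locus and regions within 5 kb of a span end are given in full by rule; the further single regions were named because the counts are small. Group comparisons are two-sided exact permutation tests over 20 assignments. Alternatives were a q-value of 0.001 or less, lists cut to the 2812 best peaks by p-value, summits in place of peaks, merging within 500 bp, flanks of 10, 25 and 100 kb, 1 library left out, and a replicate block. No 2 lists shared more than 1 identical interval. Gene order came from RefSeq's table for GRCh38.p14, where 6 of 6 members matched, for names only; strands of KRT14 and KRT18 are textbook knowledge. No hg19 sequence was at hand, so none is printed. The software was Python 3.11.15 with scipy 1.17.1, matplotlib 3.10.9, pandas 2.3.3 and numpy 2.4.6.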

Additional observations from a re-analysis of the deposited data

How the results depend on the processing

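No difference between the groups changed its sign under any alternative run, and none could pass a test in this design. Differences in regions per library (DOC1 minus lacZ) became 0 at KRT5 with 10 kb on either side, at KRT14 with 10 or 25 kb on either side and in lists of equal length, and at KRT8 and KRT18 in lists of equal length. With 1 library left out they ranged from 3.17 to 3.67 at TP63, 0 to 0.5 at SOX2, -1 to -0.5 at KRT5, 0.167 to 0.667 at KRT14, 0.167 to 2.67 at KRT8 and KRT18, and 3.33 to 6.33 over the 5 windows. The share of the list ranged from 0.0273 to 0.0644 points and the covered length from 783 to 2610 bp. In lists of equal length the difference over the 5 windows was 1.33 regions and 895 bp. With 10 kb on either side it was 3.0 regions, 0.0308 points and 865 bp, and for regions and share the groups then did not overlap (exact permutation p = 0.1). With 25 kb it was 3.0 regions, 0.0252 points and 852 bp, and with 100 kb the share differed by 0.0304 points. At TP63 it was 2.0 regions with 25 kb, without overlap. The 1 region in all 6 libraries dropped out (0 left) with 10 or 25 kb on either side, because it lies farther from KRT14. Regions present throughout DOC1 and absent from lacZ numbered 1 to 2 with a library omitted, a looser rule: 2 without lacZ 1, without DOC1 2 or without DOC1 3. In lists of equal length the count was also 1, but of another region, the one 40.5 kb past TP63. Same-numbered libraries share only a number, with correlations of their deviations across regions of 0.01, 0.03 and -0.02. With a replicate block the exact p at TP63 was 0.25, the smallest that 3 pairs allow, for the same difference of 3.33. Depth limits every absence named here.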
